A study of Arabidopsis thaliana with 24 samples.

Results

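The transcripts described here are those whose locus IDs begin with ATCG, for the plastid genome, or ATMG, for the mitochondrial genome, of *Arabidopsis thaliana*. By this rule 106 of the 27826 transcripts in the table were members, 14 of the plastid and 92 of the mitochondrial genome, and the other 27720 were nuclear. Rosettes of *gnat2* plants (T-DNA insertion line SALK_033944, which lacks the plastid acetyltransferase GNAT2) and of WT plants (Col-0) were compared after 2 h in darkness (D), in control light (C, 120 µmol m-2 s-1) or in high light (HL, 1000 µmol m-2 s-1). All plants were 4.5 weeks old, came from short days with 8 h of light, and were treated from 2 h after the onset of light. Each of the 6 groups, *gnat2* and WT under D, C and HL, had 4 biological replicates with 1 Affymetrix array each, 24 arrays in all, and the mutant was represented by 1 insertion line. Values are log2 signals that the authors normalized to one distribution on every array, so a log2 difference of 1 is a 2-fold difference. Neither the table nor the annotation used here gives a gene name for any of the 106 IDs, and members are therefore given by locus ID without a function. No probe sequences were used either.

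Plastids and mitochondria keep small genomes of bacterial origin that encode part of the photosynthetic and respiratory complexes, together with rRNAs and tRNAs for their own translation. In plants, plastid genes are transcribed by a bacterial-type polymerase, which needs nuclear-encoded sigma factors and associated proteins, and by nuclear-encoded phage-type polymerases. The phage-type enzymes alone serve the mitochondria. Transcript levels in both organelles depend strongly on RNA processing and stability, and light is a classical regulator of plastid transcription. The labelling kit named in the methods primes along the whole RNA, so organelle transcripts without a stable poly(A) tail are measured.

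The *GNAT2* transcript was between 1.54 and 2.39 on the 12 *gnat2* arrays and between 5.31 and 6.305 on the 12 WT arrays, as labelled. Leaf markers such as *RBCS1A*, the small subunit of Rubisco, were at 8.40 or above on every array, while no root, flower or seed marker checked exceeded 1.88 on any array, below the median of all values, 2.35. The median SD between replicates over the mitochondrial members was 0.12 to 0.17 in *gnat2* and 0.20 to 0.22 in WT. Over the nuclear transcripts it was likewise larger in WT, 0.209 to 0.235, against 0.148 to 0.169 in *gnat2*. In whole rosettes, fewer organelles or cells and less RNA per cell cannot be told apart.

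The plastid members were among the brightest transcripts of the arrays. Of 14, 13 (92.9%) had a mean above 8, against 33 of 92 mitochondrial members (35.9%) and 541 of 27720 nuclear transcripts (1.95%). ATCG00140 held the first rank on all 24 arrays and ATCG00580 the third, and their values stayed at 13.35 and 13.12 because each rank is given the same value on every array. No change of these 2 members can be seen in the normalized table, whatever happened in the plants. ATCG00020 took ranks 4 to 6 and moved only between 12.53 and 12.72. The lowest plastid member, ATCG00230, averaged 6.84. The mitochondrial members spread over the whole range, with ATMG01190 highest at a mean of 12.01, ATMG00770 lowest at 1.40, and 20 of 92 below the median of all values.

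**Figure D1:**
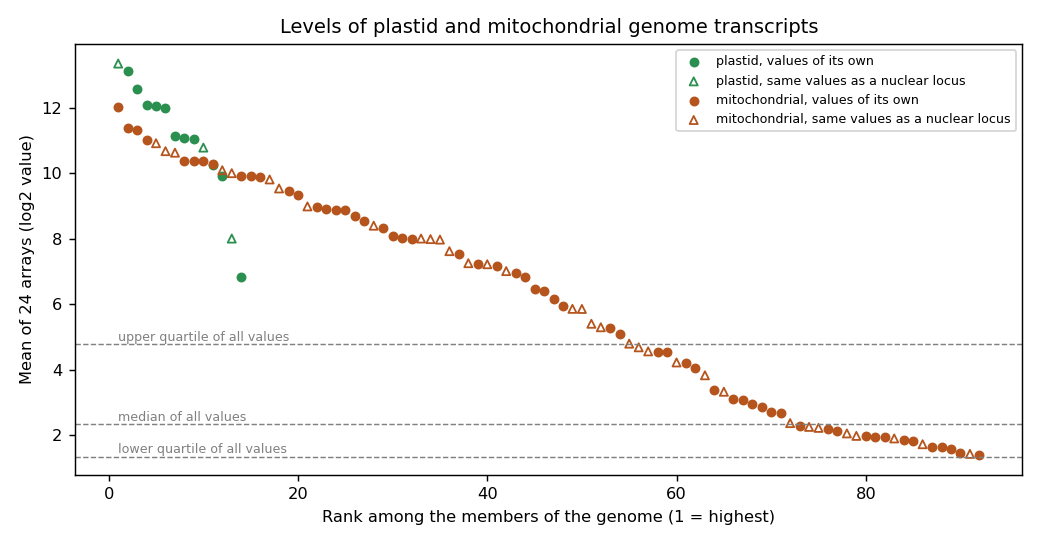
Mean log2 value over 24 arrays (vertical axis) of each member, ranked within its genome (horizontal axis). Filled circles are members with values of their own, open triangles those with the values of a nuclear row, and dashed lines are the quartiles and median of all values; 13 of 14 plastid members lie above 8.

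Many members do not have a measurement of their own. For 37 of the 106 (34.9%), a row of a nuclear locus held almost the same values, with a mean absolute difference over 24 arrays under 0.03 and r of at least 0.9955. Of these nuclear loci, 35 had IDs that begin with AT2G07, in the stretch of chromosome 2 where Arabidopsis carries an insertion of mitochondrial DNA. By their RefSeq annotation, 11 of the 37 rows belong to loci named for a tRNA, 21 to pseudogenes and 5 to protein-coding genes. ATMG01070 shared its values with AT2G07743, a tRNA-Asp locus, and ATMG01340 with AT2G07755, a tRNA-Met locus. ATCG00610 and ATMG00930, of different genomes, shared theirs with AT2G07748, a tRNA-Trp locus. Between these rows, signal from the organelle and from the nuclear copy cannot be told apart. Another 4 sets of 2 members had the same values as each other: ATCG00990 with ATCG01140, ATMG00080 with ATMG00090, ATMG00170 with ATMG00620, and ATCG00610 with ATMG00930. The 106 rows therefore held 102 different measurements. Such sets are described once below, but the counts are of rows, so each row of a set is counted. The limit of 0.03 was chosen after the values were seen.

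HL lowered a small group of members in both genotypes and raised another, with no change over 2-fold. A transcript was called when its adjusted p was under 0.05 in limma, with Benjamini-Hochberg adjustment over all 27826 transcripts. In *gnat2*, 8 members rose (7.55%) and 18 fell (16.98%), against 12.5% and 12.1% of all transcripts. In WT, 9 rose (8.49%) and 7 fell (6.60%), against 11.9% and 11.5% of all. By genome, 5 of 14 plastid members fell in *gnat2* and 3 in WT, and 0 rose in either. Among the 13 plastid members with a mean above 8, this is 38.5% and 23.1%. Nuclear transcripts of that level fell in similar shares, 34.75% in *gnat2* and 29.0% in WT. ATCG00990 and ATCG01140, which share 1 measurement, are counted separately in each genotype. Of the mitochondrial members, 8 rose and 13 fell in *gnat2*, and 9 rose and 4 fell in WT. Above 8, 27.3% of the mitochondrial members fell in *gnat2* and 3.03% in WT. Whereas 7.53% of all transcripts in *gnat2* and 6.52% in WT were called and also changed over 2-fold, 0 of the 106 members did. The median change under HL was -0.17 over the plastid and -0.082 over the mitochondrial members in *gnat2*, and -0.048 and -0.037 in WT, with -0.009 and -0.006 over all transcripts. With a cyclic loess added to the normalization, the plastid median was 0.013 in *gnat2* and 0.11 in WT and the mitochondrial -0.030 and 0.015, so the sign turned in 3 of the 4. The calls overlapped: 13 members were called in both genotypes, all in the same direction, which is 50% of the calls in *gnat2* and 81.25% of those in WT. The genotypes have separate C arrays.

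Of the plastid members, ATCG00170 fell most under HL. Its values were 8.95, 9.66, 9.58 and 9.32 in *gnat2* under HL, against 9.90, 10.10, 9.95 and 10.03 under C. In WT they were 9.59, 9.85, 9.72 and 10.02 under HL, against 10.21, 10.14, 10.17 and 10.07 under C. The HL and C arrays did not overlap in either genotype, with log2 changes of -0.62 ± 0.13 in *gnat2* (SE, adjusted p = 0.000426) and -0.35 ± 0.13 in WT (adjusted p = 0.0404). The call in WT was lost without replicate 1 of WT under HL (adjusted p = 0.139). ATCG00160, whose ID is next to it, fell by 0.51 in *gnat2* (adjusted p = 0.000533), while its change of -0.21 in WT was not called (adjusted p = 0.168). Under D it rose in WT, by 0.31, a call lost without replicate 3 of that group (adjusted p = 0.0868). These neighbours moved together also within the groups: over 24 arrays, r between their deviations from the group means was 0.778. Each lay near a different nuclear pseudogene row, with a mean difference of 0.063 for ATCG00170 and 0.051 for ATCG00160. The neighbours themselves differed by 0.332 on average.

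The measurement shared by ATCG00990 and ATCG01140 was graded over the 3 lights. ATCG00990 averaged 11.49 ± 0.18, 11.06 ± 0.058 and 10.56 ± 0.043 under D, C and HL in *gnat2* and 11.47 ± 0.15, 11.02 ± 0.12 and 10.69 ± 0.13 in WT (SD, n = 4). Neither the D nor the HL arrays overlapped with C in either genotype. Under HL it fell by 0.50 in *gnat2* (adjusted p = 0.000725) and by 0.33 in WT (adjusted p = 0.0225), the call in WT being lost without replicate 4 under C (adjusted p = 0.0821). Under D it rose by 0.43 in *gnat2* (adjusted p = 0.00255) and by 0.44 in WT (adjusted p = 0.00232), about 1.35-fold and 1.36-fold. It was the only measurement of the plastid genome called under D in both genotypes.

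**Figure D2:**
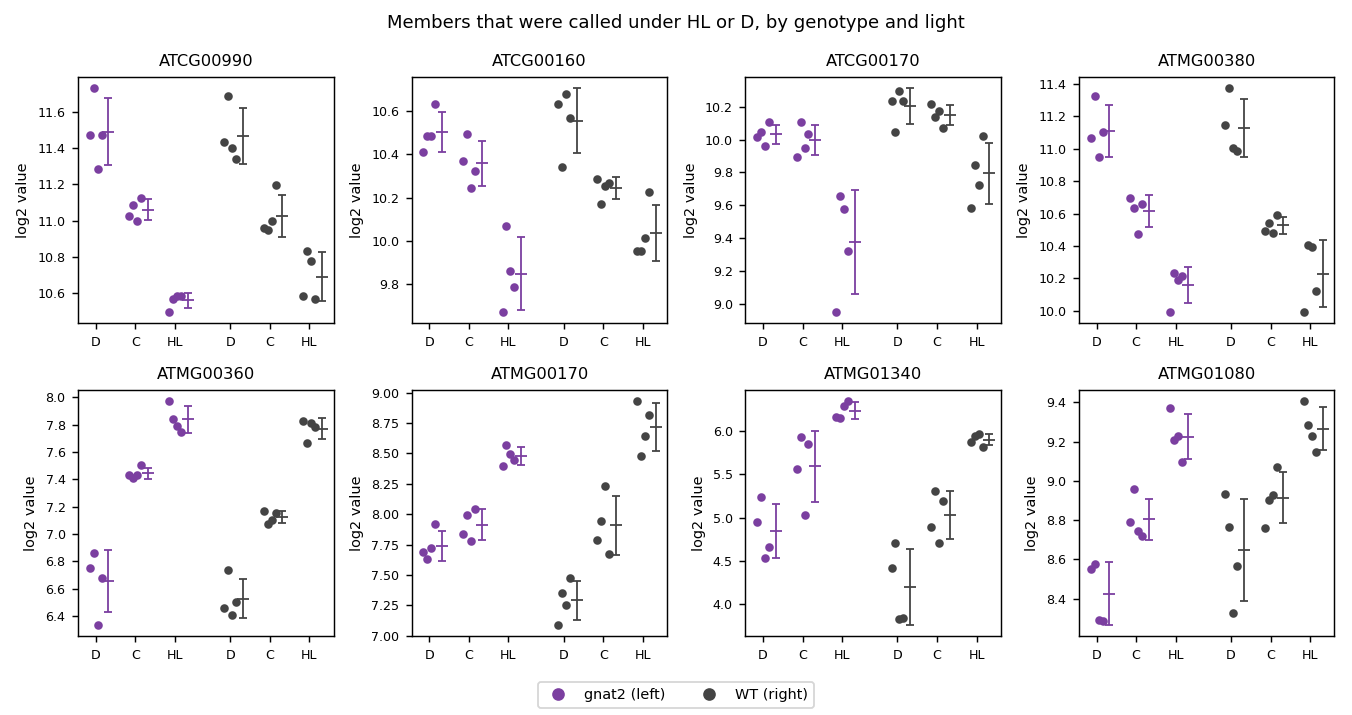
Log2 values of 8 members on each array (points) by light, with the mean and SD of 4 arrays (bars), *gnat2* on the left and WT on the right of each panel; the vertical axes differ. By their means, the upper 4 members were lower under HL than under C in both genotypes, and the lower 4 were higher under HL and lower under D. Not called among these were ATCG00160 and ATMG00380 under HL in WT, ATMG00170 under D in *gnat2* and ATMG01080 under D in WT.

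Among the called mitochondrial members, ATMG01100, ATMG00370, ATMG00310, ATMG01270 and ATMG00380 fell most under HL in *gnat2*, and ATMG00310, ATMG00980, ATMG00370 and ATMG01270 in WT. ATMG00370 averaged 7.13 ± 0.15 in *gnat2* under HL, against 7.77 ± 0.17 under C, and 7.30 ± 0.083 in WT under HL, against 7.72 ± 0.13 under C (SD, n = 4). It fell by 0.63 (adjusted p = 4.33e-05) and by 0.42 (adjusted p = 0.00381) and did not overlap between lights. Under D it changed by -0.18 and 0.010, neither called, so its response to light was not graded. ATMG00310, which shares its values with a nuclear pseudogene row, fell under HL by 0.51 in *gnat2* (adjusted p = 0.00742) and by 0.60 in WT (adjusted p = 0.00191). ATMG01270 and ATMG00980 fell by 0.49 and 0.40 in *gnat2* and by 0.34 and 0.43 in WT, where ATMG01270 was not called without replicate 2 under C (adjusted p = 0.0945). ATMG00380 fell by 0.46 in *gnat2* (adjusted p = 0.00371, or 0.0803 with a cyclic loess) and changed by -0.30 in WT, not called (adjusted p = 0.064). ATMG00980 has the values of the nuclear gene AT2G07675. ATMG01100, with the values of a nuclear pseudogene row, changed by -0.42 in WT, not called, and fell by 0.69 in *gnat2* (adjusted p = 0.0213), a call that was lost without replicate 1 of the HL group (adjusted p = 0.135), where it was 3.59, against 4.41 to 4.84 in the other 3.

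An opposite group of mitochondrial members was higher under HL. ATMG00360 had 7.97, 7.84, 7.79 and 7.74 in *gnat2* under HL, against 7.43, 7.41, 7.43 and 7.50 under C. In WT it had 7.83, 7.66, 7.81 and 7.78 under HL, against 7.17, 7.07, 7.10 and 7.15 under C. With rises of 0.39 ± 0.11 in *gnat2* (SE, adjusted p = 0.00601) and 0.65 ± 0.11 in WT (adjusted p = 3.67e-05), no array of one light reached the other. The measurement of ATMG00170 and ATMG00620 rose by 0.57 in *gnat2* and by 0.81 in WT (1.75-fold), and ATMG01080 by 0.42 and 0.35. ATMG01340, whose values are those of the tRNA-Met locus AT2G07755, rose by 0.64 in *gnat2* (adjusted p = 0.0181) and 0.87 in WT (adjusted p = 0.00161). ATMG00940, with the values of a nuclear pseudogene row, rose by 0.85 in WT (adjusted p = 0.0116), a call lost without replicate 2 under C (adjusted p = 0.0661), and changed by 0.24 in *gnat2*, not called (adjusted p = 0.614). ATMG00250 rose by 0.60 in *gnat2*, a call lost without replicate 4 under C (adjusted p = 0.131), and changed by 0.39 in WT, not called. The dim ATMG01180, with a mean of 2.86, rose by 0.64 and 0.73. In *gnat2*, ATMG01340 was not called without replicate 3 under C (adjusted p = 0.107), and ATMG01180 not without replicate 3 under HL (adjusted p = 0.139), nor in WT without replicate 2 under HL (adjusted p = 0.0994).

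The plastid calls depended on the normalization. With the cyclic loess, which evens out differences between arrays that depend on the level, the 3 plastid rows called as falling in WT were no longer called (adjusted p between 0.204 and 0.252), although ATCG00170 and the shared measurement of ATCG00990 remained called as lower in *gnat2* (adjusted p = 0.0055 and 0.0301), as did ATCG00160 (adjusted p = 0.0136). ATCG00610, which fell by 0.39 in *gnat2* (adjusted p = 0.0127), was no longer called with the loess (adjusted p = 0.101) or without replicate 3 of *gnat2* under C (adjusted p = 0.0529). The split of member calls became 13 higher and 10 lower in *gnat2*, against 8 and 18, and 11 higher and 3 lower in WT, against 9 and 7.

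Under D, the share of members that rose was near that of all transcripts and the share that fell was smaller, again with no change over 2-fold. In *gnat2*, 11 members rose (10.4%) and 5 fell (4.72%), against 13.3% and 14.5% of all transcripts. In WT, 17 rose (16.04%) and 6 fell (5.66%), against 12.7% and 13.1% of all. Called changes over 2-fold made up 8.53% of all transcripts in *gnat2* and 7.39% in WT, and 0 of the 106 members. By genome, 2 of 14 plastid members rose in *gnat2* and 3 in WT, with 0 falling. The 2 in *gnat2* were ATCG00990 and ATCG01140, which share 1 measurement and are also among the 3 in WT. Of the mitochondrial members, 9 rose and 5 fell in *gnat2*, and 14 rose and 6 fell in WT. The median change over the mitochondrial members was 0.14 in *gnat2* and 0.095 in WT, with -0.003 and 0 over all transcripts. Over the plastid members it was 0.036 and 0.027, with 2 of the 14 held at a fixed rank. With the cyclic loess, these medians were 0.22 and 0.15 for the mitochondrial and 0.26 and 0.32 for the plastid members. Calls shared by the genotypes numbered 10, all of the same direction, which is 62.5% of the calls in *gnat2* and 43.5% of those in WT.

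ATMG00380, whose values are those of the tRNA-Asn locus AT2G07764, had the largest rise among the called members in both genotypes. It had 11.06, 11.32, 10.95 and 11.10 in *gnat2* under D, against 10.69, 10.63, 10.47 and 10.66 under C. In WT it had 11.14, 11.37, 11.01 and 10.98 under D, against 10.49, 10.54, 10.48 and 10.59 under C. The D arrays were all above the C arrays, with rises of 0.49 ± 0.12 in *gnat2* (SE, adjusted p = 0.00149) and 0.60 ± 0.12 in WT (adjusted p = 0.000232). ATMG00290 rose by 0.37 and 0.49, and ATMG00960 by 0.29 and 0.40. Next to each other by locus number, ATMG00510 and ATMG00513 rose in both genotypes, and ATMG00516 and ATMG00520 in *gnat2*, with changes between 0.23 and 0.33. All of these but ATMG00520 have the values of nuclear pseudogene rows. In *gnat2*, the calls of ATMG00290 and ATMG00960 were lost without replicate 3 under C (adjusted p = 0.0799 and 0.0885) and that of ATMG00520 without replicate 4 under D (adjusted p = 0.0806). ATMG00510 was tightly measured, at 10.82 to 10.89 in *gnat2* under D, against 10.53 to 10.73 under C. ATMG01275 rose by 0.46 in WT and the measurement of ATMG00080 and ATMG00090 by 0.46, with changes in *gnat2* of 0.048 and 0.15 that were not called. ATMG00590, which shares its values with the nuclear gene AT2G07718, rose by 0.45 in *gnat2*, with a change of 0.11 in WT that was not called. None of these 3 responses was called as different between the genotypes (adjusted p = 0.489, 0.686 and 0.608).

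Of the 5 members that fell under D in *gnat2*, 4 had risen under HL there, and of the 6 in WT, 4. ATMG00170 and ATMG00620, which share 1 measurement, are counted separately in WT. The comparisons share the C arrays, so the opposite signs are not independent. ATMG00360 had 6.75, 6.86, 6.34 and 6.68 in *gnat2* under D and 6.46, 6.73, 6.41 and 6.51 in WT under D, all below the C values above. It fell by 0.79 ± 0.11 in *gnat2* (SE, adjusted p = 1.77e-06), the smallest adjusted p of any light response of a member, and by 0.60 ± 0.11 in WT (adjusted p = 8.57e-05). ATMG01340 fell by 0.75 and 0.83, and ATMG00250, whose values are those of the tRNA-Met locus AT2G07758, by 0.70 and 0.58, with D and C arrays of both overlapping in each genotype. ATMG01080 fell by 0.38 in *gnat2*, a call lost without replicate 2 under C (adjusted p = 0.0729). With the cyclic loess its change was -0.20, not called (adjusted p = 0.319). The call of ATMG00250 in WT was lost without replicate 1 under C (adjusted p = 0.174). The measurement of ATMG00170 and ATMG00620 fell by 0.62 in WT (adjusted p = 0.000393) and changed by -0.17 in *gnat2*, not called (adjusted p = 0.378). ATMG01090 fell in *gnat2*, by 0.43 (adjusted p = 0.000555), with a change of -0.090 in WT that was not called.

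**Figure D3:**
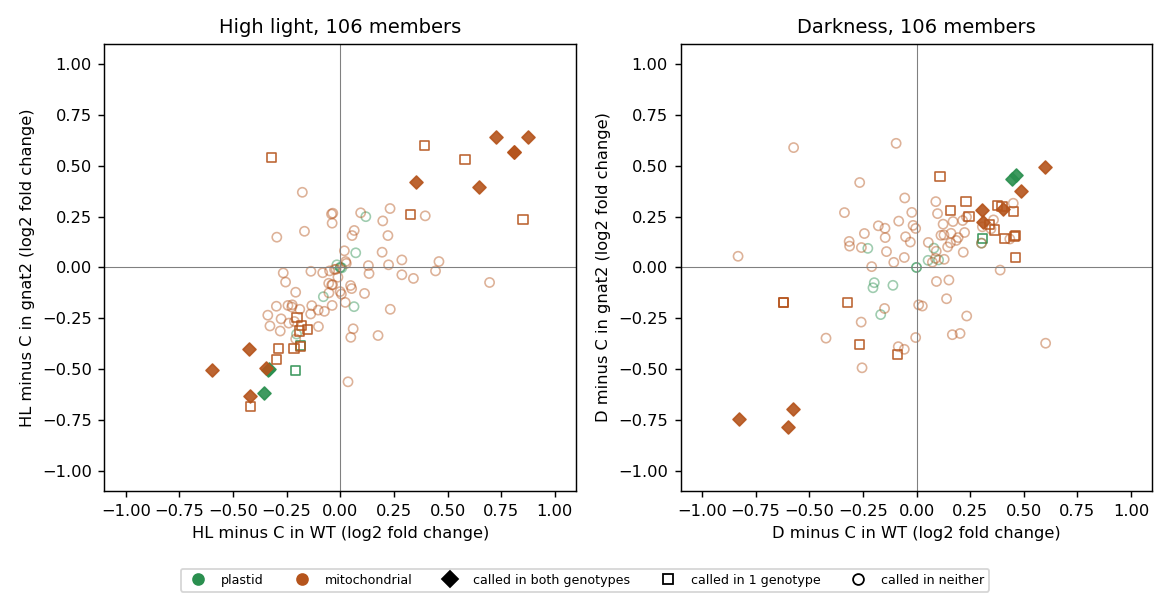
Log2 fold change against C in *gnat2* (vertical axis) and in WT (horizontal axis) of each of the 106 members, for HL and for D. Filled diamonds were called in both genotypes, 13 under HL and 10 under D, and all of them lie in the quadrants of equal sign and within 1 on both axes.

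The D response depended on the level and on the normalization. Of 46 members with a mean above 8, 28 had means in the order D over C over HL in both genotypes and 3 in the opposite order. Over both genomes 37 of 106 (34.9%) had the first order and 9 (8.49%) the second, against 14.99% and 14.4% of all transcripts. No such share is given for nuclear transcripts above 8. Under HL, bright nuclear transcripts went the same way as the members. Those above 8 had a median change of -0.12 in *gnat2* and -0.081 in WT, and the 33 mitochondrial members above 8 had -0.18 and -0.074. Under D, bright nuclear transcripts went the opposite way to the members. Their median change above 8 was -0.16 in *gnat2* and -0.19 in WT, whereas the 33 mitochondrial members above 8 had 0.16 and 0.19. With the cyclic loess, the bright nuclear transcripts had medians of 0.033 and 0.020 and the mitochondrial members 0.38 and 0.42. The member calls then numbered 37 higher and 4 lower in *gnat2*, against 11 and 5, and 40 higher and 5 lower in WT, against 17 and 6.

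Several nuclear genes for the organelle transcription machinery had responses over 2-fold. The 3 phage-type RNA polymerases were all higher under HL in both genotypes. *RPOTm* (AT1G68990), the mitochondrial enzyme, rose by 1.49 in *gnat2* (adjusted p = 1.13e-09) and by 1.97 in WT (adjusted p = 9.62e-12). *RPOTmp* (AT5G15700), which serves both organelles, rose by 1.52 and 1.57, and *RPOTp* (AT2G24120), the plastid enzyme, by 0.49 and 1.15. Under D, *RPOTp* fell by 1.04 in *gnat2* and by 0.67 in WT, while *RPOTm* changed by 0.033 in *gnat2*, not called, and rose by 0.40 in WT. Of the 6 plastid sigma factors, *SIG5* (AT5G24120), known for its response to light and stress, rose under HL by 2.61 in *gnat2* and 2.37 in WT and fell under D by 0.96 and 1.17. *SIG1* (AT1G64860) and *SIG2* (AT1G08540), 2 other sigma factors, fell under HL by 0.41 and 0.57 in *gnat2* and by 0.58 and 0.34 in WT. Both fell under D too, by 0.60 and 0.33 in *gnat2* and by 0.68 and 0.48 in WT. Under HL, 3 of the 6 sigma factors fell and 1 rose in *gnat2*, and 2 fell and 1 rose in WT. Under D, 4 fell in *gnat2* and 3 in WT, with 0 rising. Of the 12 transcripts for proteins associated with the plastid polymerase, 4 fell and 0 rose under HL in *gnat2*, and 2 fell and 1 rose in WT. Of all transcripts, 12.1% and 11.5% fell. Under D, 11 of the 12 fell in *gnat2* and 5 in WT, with 0 rising. The list medians under D were -0.66 and -0.29, against -0.003 and 0 over all transcripts, of which 14.5% and 13.1% fell. The difference between the genotypes in these counts was not tested. The list median of *gnat2* minus WT was 0.33 under C and -0.2 under D, so the counts also reflect the separate C arrays. Between the genotypes under C, *RPOTp* and *RPOTm* were higher in *gnat2*, by 0.62 and 0.67 (adjusted p = 0.0116 and 0.00764). No transcript for a sigma factor or an associated protein was called. Under HL and D, none of the 3 polymerases was called. *SIG2* was higher under D, by 0.45, and the transcript for 1 associated protein was lower under HL (*PAP8*, by 0.50) and for 1 under D (*PAP10*, by 0.58).

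Between the genotypes, mitochondrial members of low and middle level were higher in *gnat2*. Over the 3 lights together, 36 of the 106 were higher and 7 lower in *gnat2*, against 6.82% and 7.92% of all transcripts. The mitochondrial members held 32 of the rises and 6 of the falls, with a median difference of 0.17, while the plastid members had 4 rises and 1 fall, with a median of 0.024 (-0.013 with the cyclic loess), against -0.009 over all transcripts. Light by light, under D 16 were higher and 4 lower (2.03% and 1.89% of all), under C 6 were higher and 1 lower (0.708% and 0.589% of all), and under HL 4 were higher and 1 lower (0.934% and 0.981% of all). Of the 92 mitochondrial members, 48 (52.2%) were higher in *gnat2* in each of the 3 lights, called or not, against 20.7% of the nuclear transcripts.

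The rises were unevenly spread over the levels. Of 39 mitochondrial members between the median of all values and 8, 20 (51.3%) rose and 1 fell, with a median difference of 0.31, whereas 7.94% of the nuclear transcripts in that range rose and their median was -0.006. Of 20 below the median, 5 rose (25%) and 0 fell, with a median of 0.21, against 5.37% and 5.04% of the nuclear transcripts. Above 8, 7 of 33 rose (21.2%) and 5 fell (15.2%), with a median of 0.036, against 11.1% and 10.2%. ATMG00870 is an example of the middle range: it averaged 4.03 ± 0.22, 3.98 ± 0.26 and 3.42 ± 0.24 in *gnat2* under D, C and HL, against 3.00 ± 0.35, 2.92 ± 0.29 and 2.95 ± 0.48 in WT (SD, n = 4). It was higher in *gnat2* by 1.02 under D (adjusted p = 0.00775) and by 1.07 under C (adjusted p = 0.0108), and its difference of 0.47 under HL was not called. Without replicate 3 of *gnat2* under C, the call under C was lost (adjusted p = 0.0507). ATMG00740, whose mean of 1.86 is below the median of all values, was higher by 0.78 under C. That call was lost without replicate 3 of *gnat2* under C (adjusted p = 0.0658) and with only the arrays compared (adjusted p = 0.0963). ATMG00950 was higher by 0.88 under HL, a call lost without replicate 3 of WT under HL (adjusted p = 0.12). ATMG00450 was higher by 0.95 under HL (adjusted p = 0.0498), a call lost without replicate 4 of WT under HL (adjusted p = 0.166). Further rises over the 3 lights included ATMG01240 (0.93, not called without replicate 1 of WT under HL, adjusted p = 0.0845), ATMG00450 (0.79), ATMG00400 (0.77), ATMG00230 (0.77, with the values of a nuclear tRNA-Ser locus) and ATMG00810 (0.72). The means of ATMG00230 and ATMG00810, 2.26 and 2.13, are also below the median of all values.

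**Figure D4:**
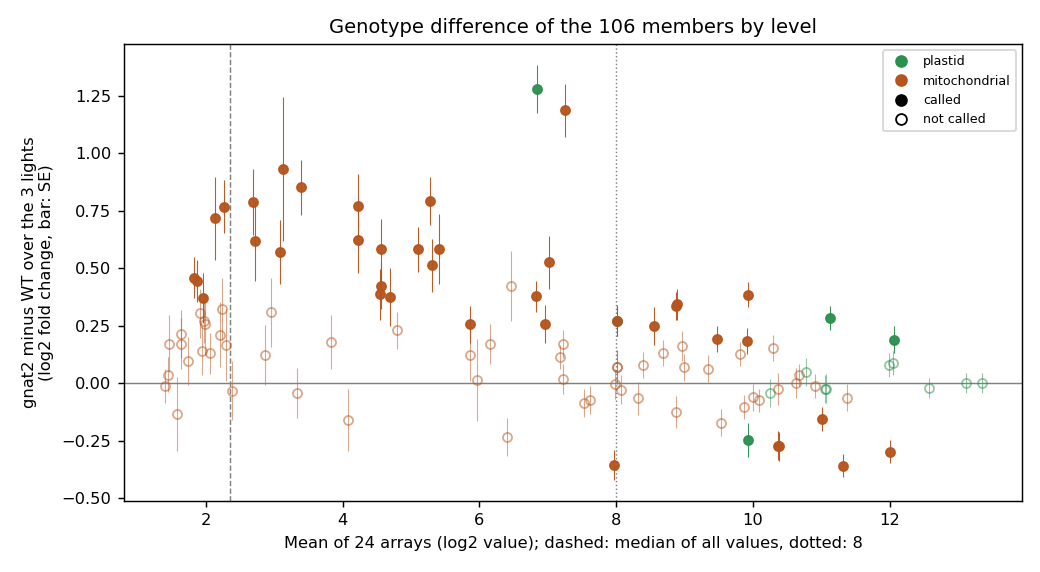
Difference between *gnat2* and WT over the 3 lights (vertical axis, log2 fold change, bars: SE) of each member against its mean log2 value (horizontal axis). Filled symbols were called, 36 above and 7 below 0, and between the dashed line at the median and the dotted line at 8 all called members but 1 lie above 0.

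ATCG00230 and ATMG01070 differed most, and were the only members called in each light separately. ATCG00230 had 7.59, 7.79, 7.54 and 7.69 in *gnat2* under D, against 6.23, 6.60, 5.65 and 6.001 in WT. Under C it had 7.48, 7.41, 7.75 and 7.60 in *gnat2*, against 6.02, 6.32, 6.45 and 6.59 in WT. Under HL it had 7.11, 7.39, 7.26 and 7.17 in *gnat2*, against 5.70, 5.89, 6.65 and 6.34 in WT. The lowest of the 12 *gnat2* arrays, 7.11, was above the highest of the 12 WT arrays, 6.65. The differences were 1.54 ± 0.18 under D (SE, adjusted p = 6.47e-05), 1.21 ± 0.18 under C (adjusted p = 0.00132) and 1.09 ± 0.18 under HL (adjusted p = 0.00288), or 2.43-fold over the 3 lights (adjusted p = 4.33e-08). No other row held its values: the nearest nuclear row, AT2G07743, differed from it by 0.41 on average.

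ATMG01070, with the values of the tRNA-Asp locus AT2G07743, was between 7.43 and 8.36 in *gnat2* (median 7.83) and between 6.03 and 7.33 in WT (median 6.70). It was higher in *gnat2* by 1.49 under D, 1.11 under C and 0.96 under HL (adjusted p = 0.000279, 0.00661 and 0.0142), and the call under HL was lost without WT replicate 1 (adjusted p = 0.0554). Its neighbour by locus number, ATMG01060, lay lower, between 5.44 and 6 in *gnat2* and between 4.38 and 5.36 in WT, again without overlap, with a difference of 0.79 over the 3 lights (adjusted p = 3.18e-05). These 3 members were the only ones of the 106 (2.83%) whose 12 arrays of one genotype did not overlap those of the other, against 0.133% of all transcripts. They also scattered alike between replicates: over 24 arrays, deviations from the group means had r of 0.970 between ATMG01060 and ATMG01070 and of 0.833 between ATCG00230 and ATMG01070. Within WT under D, all 3 were highest in replicate 2. Whether they share probes was not tested.

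Over 2-fold, called differences numbered 6 members under D, 4 under C, 1 under HL and 2 over the 3 lights, against 0.291%, 0.151%, 0.176% and 0.126% of all transcripts. Under D these were ATCG00230, ATMG00880, ATMG01070, ATMG01260, ATMG01060 and ATMG00870. Under C they were ATCG00230, ATMG01070, ATMG00870 and ATMG00400, the last not called without replicate 2 of *gnat2* (adjusted p = 0.0985). ATMG00880 was at 3.38, 3.56, 3.11 and 3.71 in *gnat2* under D, against 1.501, 2.353, 1.61 and 2.19 in WT, without overlap (log2 difference 1.53, adjusted p = 0.006), while its differences of 0.36 under C and -0.032 under HL were not called. ATMG01260, with the values of a nuclear pseudogene row, was at 5.97 to 6.30 in *gnat2* under D, against 4.11 to 5.49 in WT (1.199, adjusted p = 0.0118). It was not called when only the arrays of the groups compared were fitted (adjusted p = 0.0695). ATMG00880 and ATMG01260 were among the more scattered members, with SDs of 0.42 and 0.67 in WT under D.

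Among the bright members, ATMG00560 was higher and the neighbours ATMG01190 and ATMG01200 were lower in *gnat2*. ATMG00560 averaged 10.33 ± 0.066, 10.08 ± 0.084 and 9.96 ± 0.080 in *gnat2* under D, C and HL, against 9.90 ± 0.043, 9.66 ± 0.17 and 9.66 ± 0.039 in WT (SD, n = 4), a difference of 0.39 over the 3 lights (adjusted p = 6.42e-05). ATMG01200 averaged 11.21 ± 0.093, 11.11 ± 0.084 and 11.11 ± 0.025 in *gnat2*, against 11.55 ± 0.058, 11.41 ± 0.095 and 11.54 ± 0.090 in WT, and fell by 0.36 over the 3 lights (adjusted p = 7.49e-05). ATMG01190 fell by 0.30 (adjusted p = 0.000255). This member took ranks 8 to 18 and had 1 and the same value, 12.18, on all 8 WT arrays under D and HL, so its spread is compressed by the normalization. ATMG00980 fell by 0.36 and the measurement of ATMG00080 and ATMG00090 by 0.27. Of the plastid genome, ATCG00250 rose by 0.28 (adjusted p = 0.00117), ATCG00610, which shares its row with ATMG00930, by 0.27, and ATCG00670 by 0.19, a call lost without replicate 3 of *gnat2* under C (adjusted p = 0.0605), while ATCG00170 fell by 0.25.

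**Figure D5:**
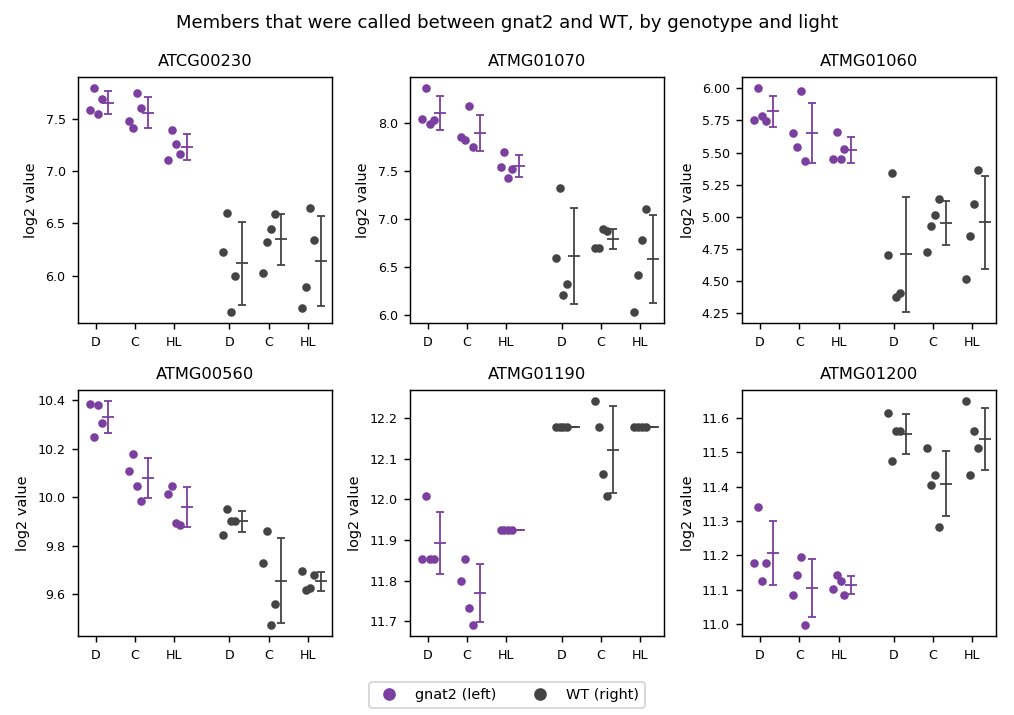
Log2 values of 6 members on each array (points) by light, with the mean and SD of 4 arrays (bars), *gnat2* on the left and WT on the right of each panel; the vertical axes differ. The 12 *gnat2* arrays lie above the 12 WT arrays for the upper 3 members, ATMG00560 is higher in *gnat2* in each light, and ATMG01190 and ATMG01200 are lower.

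Some short noncoding RNAs of the nucleus were also higher in *gnat2*, where 6.82% of all transcripts rose. Of the 11 members that share their values with a locus named for a tRNA, 6 rose over the 3 lights and 0 fell, with a median difference of 0.27. Of 52 other nuclear tRNA loci, 24 rose and 1 fell, with a median of 0.34, and of 68 snoRNA loci 31 rose and 0 fell, with a median of 0.29. Many tRNA genes are near-identical copies, so these rows are not independent. The 69 members without a nuclear row of the same values had 25 rises and 6 falls, with a median of 0.17. Of the 3 root markers, *PIN2* and *EXPA7* were higher in *gnat2* by 0.31 and 0.22 (adjusted p = 0.0221 and 0.0225), while *COBL9* differed by 0.003, not called. *PIN2* and *EXPA7* had means of 1.56 and 1.36 in *gnat2* and 1.25 and 1.14 in WT. All of these are below the median of all values, 2.35. Summed log2 values of all 3 were between 3.78 and 4.38 in *gnat2* and between 2.88 and 4.59 in WT. The part of small RNAs or of root tissue in the result was not tested.

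The light responses of the members were not shown to differ between the genotypes. Of all transcripts, 0.0108% were called for a difference between the HL responses and 0.0288% for one between the D responses, and 0 of the 106 members in either test by limma. At an unadjusted p under 0.05, 2 members differed in the HL response and 10 in the D response. ATMG01040, with the values of a nuclear pseudogene row, had the smallest p for HL, with a response larger in *gnat2* by 0.86 (95% interval 0.31 to 1.41, adjusted p = 0.47). For D it was ATMG00200, with a response lower in *gnat2* by 0.98 (interval from -1.66 to -0.29, adjusted p = 0.461). ATMG00880 had the largest positive difference for D, 1.16 (0.29 to 2.03, adjusted p = 0.52). Of the 104 members not held at a fixed rank, for 92 under HL and 91 under D the 95% interval of the difference stayed within 2-fold in either direction, so for the others a 2-fold difference between the genotypes was not excluded by these arrays.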

How the data were processed

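The deposited log2 values were made by the authors with RMA background correction, quantile normalization and a custom chip definition file with TAIR gene definitions (Custom CDF; RMA is also named in the submitters' processing notes), 1 value per transcript and array. All 24 arrays were used, with 0 missing values, and their number limits the precision. Quantile normalization removes differences in total RNA and fixes the value of each rank.

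A linear model with 1 mean per genotype and light was fitted to all 27826 transcripts by limma 3.58.1 (R 4.3.3; 18 residual and 6.05 prior degrees of freedom), in place of the one-way ANOVA of the methods. Tests were two-sided, with Benjamini-Hochberg adjustment within each of 10 comparisons. The fit was tested on simulated data. RefSeq annotation of TAIR10.1 named nuclear loci, and 0 of the 106 member IDs matched it.

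Named members are, per comparison and genome, the 5 called with the largest rise and the 5 with the largest fall, the highest and lowest of each genome, and neighbours by locus number. Other IDs were picked with their values in view. The planned naming of members by gene symbol could not be applied. Members and lists were chosen with earlier results of these data known. Alternatives were a replicate block, fits on the arrays compared, recentring, cyclic loess, a filter on dim transcripts, a trended robust prior and leaving out each array. A pair of ways of treating rows with shared values were added after seeing the data. Replicates are biological by their labels.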

Additional observations from a re-analysis of the deposited data

Results flagged for a closer look

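Of 270 groups of 4 arrays, for the 45 members named by rule, 17 held an array far from the other 3. Groups with nearly equal values, such as those of ATCG00140, were passed over, so fewer than 270 were tested. Chance gives about 1 in 20 of those tested. In *gnat2* under D, replicate 2 stood apart for ATMG01060 (6, against 5.75 to 5.79 in the others), ATMG01070 (8.36, against 7.99 to 8.04), ATMG01190 (12.01, against 11.85) and ATCG00250 (11.40, against 11.18 to 11.21), and replicate 4 for ATMG00400 (4.43, against 4.61 to 4.62). In *gnat2* under C, replicate 4 stood apart for ATMG00250 (3.60, against 4.04 to 4.11). In *gnat2* under HL, replicate 1 did so for ATCG01140 (10.51, against 10.58 to 10.59), replicate 2 for ATCG00610 (8.00, against 7.79 to 7.80), and replicate 4 for ATCG00670 (12.01, against 12.40) and ATMG01240 (4.16, against 3.45 to 3.54).

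In WT under D, replicate 2 stood apart for ATMG01180 (2.90, against 2.00 to 2.13). In WT under C, replicate 1 did so for ATMG00520 (9.16, against 8.71 to 8.74), replicate 3 for ATMG00870 (2.48, against 3.03 to 3.11), and replicate 4 for ATMG00080 (10.15, against 10.41 to 10.46) and ATMG00090 (10.16, against 10.42 to 10.47), which share 1 measurement. In WT under HL, replicate 1 did so for ATMG00960 (8.58, against 8.27 to 8.32) and ATCG00670 (12.09, against 12.01). For ATCG00670 and ATMG01190 the other arrays shared values of a few top ranks, which narrows the range that the distance is measured against.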

How the results depend on the processing

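Counts are of called members of both genomes. Without 1 array they ranged from 19 to 24 for HL in *gnat2* and 10 to 18 in WT (26 and 16 with all arrays), from 9 to 18 for D in *gnat2* and 16 to 25 in WT (16 and 23), from 11 to 25, 2 to 7 and 2 to 6 for *gnat2* against WT under D, C and HL (20, 7 and 5), and from 36 to 44 over the 3 lights (43). The lowest came without replicate 4 of *gnat2* under D (9), replicate 2 of WT under C (10), and, between genotypes, replicate 3 of *gnat2* under D (11), replicate 3 of *gnat2* under C (2) and replicate 1 of WT under HL (2). With only the arrays compared, the counts were 10 for HL and 12 for D in WT, and 2 and 6 for the genotypes under HL and D. A trended robust prior gave 15 for the genotypes under C and 9 under HL. The cyclic loess gave 41 for D in *gnat2* and 45 in WT, and moved the plastid medians to 0.013 (HL, *gnat2*), 0.11 (HL, WT), 0.26 (D, *gnat2*) and 0.32 (D, WT), so that both HL medians changed sign. Its cause was not tested. Without members that share values with a nuclear row, 16 and 10 remained for HL and 9 and 15 for D in *gnat2* and WT. All other planned settings kept the counts within 1.5 times, and no named change reversed. Of 89 named changes, 31 lost the call without some array, 17 with only the arrays compared and 9 with the loess. Another background correction was not run, since it needs scanner intensities.

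Same-numbered replicates deviated together only weakly (median r = 0.068 over 60 pairs, 14 of them above 0.1), although 23 of 24 arrays correlated best with their own number. With the replicate block, the counts were 28 and 18 for HL, 17 and 24 for D in *gnat2* and WT, 22, 8 and 5 between genotypes under D, C and HL, and 45 over the 3 lights, and all 89 named changes stayed called. The differences between light responses had 0 called members in each setting.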
